A study of Homo sapiens with 12 samples.

Results

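The effectors YAP1, WWTR1 and TEAD1 and 7 of their target genes, CTGF, CYR61, ANKRD1, AMOTL2, AJUBA, LATS2 and AXL, were followed across 12 RNA-seq libraries of a papillary thyroid carcinoma cell line and its Dicer1 (+/-) derivatives. They were chosen by name, and all 10 are among the 58302 genes of the deposited table. TPC1 is the parental line, derived from a papillary thyroid carcinoma, with the wild-type genotype and no treatment. D11, WB1 and TD5 are each a single clone of TPC1 obtained with Cas9 and a guide against exon 11 of Dicer1, and each kept 1 wild-type allele. A difference between a clone and TPC1 therefore cannot be told apart from one that arose by cloning. Each line had 3 libraries from cells grown in RPMI with 10% serum. The study's methods state in general that experiments were repeated independently, but neither they nor the labels say whether the 3 libraries of a line came from separate cultures, and the p-values then measure only the spread between libraries.

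YAP1 and WWTR1 (TAZ) are transcriptional co-activators without a DNA-binding domain of their own. The Hippo kinases MST and LATS phosphorylate them and keep them in the cytoplasm. When the kinases are inactive, both proteins enter the nucleus and bind TEAD factors such as TEAD1, which recognise the letters GGAATG in promoters and enhancers. Cell density, attachment and tension of the actin cytoskeleton control this step, which is largely set by protein phosphorylation and not by the mRNA level of YAP1. CTGF, CYR61 and ANKRD1 are the targets most often used to read out the pathway, while AMOTL2, AJUBA and LATS2 are targets that act back on it. The densities of the cultures at harvest are not given in the sources used here.

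The values are reads per gene that the authors scaled to 20000000 aligned reads per library and rounded up, called scaled reads here. The depth estimated from the whole numbers that occur was 12700000 to 21020000 reads per library, and 3 reads correspond to 2.85 to 4.72 scaled reads, which covers counting error only. Genes that reached 1 per 1000000 in 3 or more libraries were tested with limma, and 9 of the 10 members passed, all except ANKRD1. Called genes are those that changed at least 1.5-fold with a p under 0.05 after Benjamini-Hochberg adjustment over all 16027 tested genes. Changes are on the log2(value per 1000000 + 1) scale. DICER1, the targeted gene, had 1360, 1129 and 1101 scaled reads in TPC1. The D11 libraries had 977, 1051 and 1093, those of WB1 881, 939 and 815, and those of TD5 643, 627 and 809. All 9 clone libraries lay below the TPC1 libraries, and the log2 fold change was -0.19 in D11, -0.43 in WB1 and -0.77 in TD5 (limma adjusted p = 0.138, 0.00404 and 9.02e-05), so that TD5 was called. With a correction for the GC content of transcripts, DICER1 was at -0.40 in D11 (adjusted p = 0.000218) and at -0.63 in WB1, which was then called, and without TPC1 replicate 1 it was at -0.10 in D11 (adjusted p = 0.471). A lower value in such bulk libraries does not tell fewer expressing cells from less RNA per cell. Of 7 thyroid markers, TSHR, NKX2-1 and SLC5A5 were listed at 0 in every library, whereas PAX8, a thyroid transcription factor, was expressed. The fibroblast markers summed to 165 to 362 scaled reads, the endothelial markers to 0 to 9 and the leukocyte markers to 2 to 9, with DCN, CDH5 and CD3E at 0 in every library.

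The bases before the transcription start are shown first for 3 target genes whose promoters hold the TEAD letters. These are CTGF, the one tested member that was called, and AMOTL2 and ANKRD1, whose values were lower in all 9 clone libraries than in TPC1. The sequences are from RefSeq (GRCh38.p14), which had promoters for 8 of the 10 members, all except CYR61 and TEAD1. Each covers the 250 bases before a start site, 5′ to 3′ on the strand of the gene, with GGAATG or its reverse complement CATTCC in capitals. CTGF lies at chr6:131951373-131951622 (minus strand), ANKRD1 at chr10:90921088-90921337 (minus strand) and AMOTL2, from the second of its 2 start sites, at chr3:134374448-134374697 (minus strand).
CTGF: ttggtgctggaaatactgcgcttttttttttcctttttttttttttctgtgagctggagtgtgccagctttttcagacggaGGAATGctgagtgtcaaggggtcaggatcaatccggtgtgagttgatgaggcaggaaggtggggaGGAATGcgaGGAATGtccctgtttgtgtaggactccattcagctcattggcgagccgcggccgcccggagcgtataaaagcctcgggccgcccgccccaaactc
ANKRD1: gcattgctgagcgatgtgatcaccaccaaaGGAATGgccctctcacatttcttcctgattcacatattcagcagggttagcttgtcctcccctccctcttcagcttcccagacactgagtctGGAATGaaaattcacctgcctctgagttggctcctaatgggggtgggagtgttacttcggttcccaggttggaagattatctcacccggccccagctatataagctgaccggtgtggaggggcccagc
AMOTL2: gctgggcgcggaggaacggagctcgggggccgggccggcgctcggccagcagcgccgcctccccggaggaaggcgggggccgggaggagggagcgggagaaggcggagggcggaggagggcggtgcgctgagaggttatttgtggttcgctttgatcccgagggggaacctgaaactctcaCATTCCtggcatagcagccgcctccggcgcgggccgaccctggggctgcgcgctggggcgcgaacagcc
CTGF held 3 matches, which begin 169, 104 and 95 bases before the start site, and ANKRD1 held 2, at 220 and 128 bases before it. AMOTL2 held 1 match, 69 bases before the second start, and none before the other. In windows from 250 bases before to 50 bases after a start site, 14.0% of 35116 RefSeq promoters held at least 1 match on either strand, 1.37% at least 2 and 0.128% at least 3. YAP1, AJUBA, LATS2 and AXL had 1 match each in such a window, for AJUBA and AXL at the second of 2 start sites, and WWTR1 had none. A loose form of the AP-1 letters, TGANTCA with any base at N, was searched on both strands. Among these members it occurred only in ANKRD1, as TGATTCA at position -195 and apart from its TEAD letters, and in 7.71% of all promoters. The stricter letters TGACTCA and TGAGTCA were not counted apart. A match describes the letters of the window and not a site that is bound.

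In TPC1 the levels of the members spanned a wide range. Per kilobase of transcript and per 1000000 reads, CYR61 was the highest at 214.8 and AXL next at 174.3. WWTR1 reached 87.25, CTGF 58.39, AMOTL2 50.87 and AJUBA 35.7 on the same scale. YAP1 was at 29.51, TEAD1 at 24.79 and LATS2 at 10.63, while ANKRD1 stood at 1.005. On this scale the mRNA of WWTR1 was thus more abundant than that of YAP1.

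**Figure D1:**
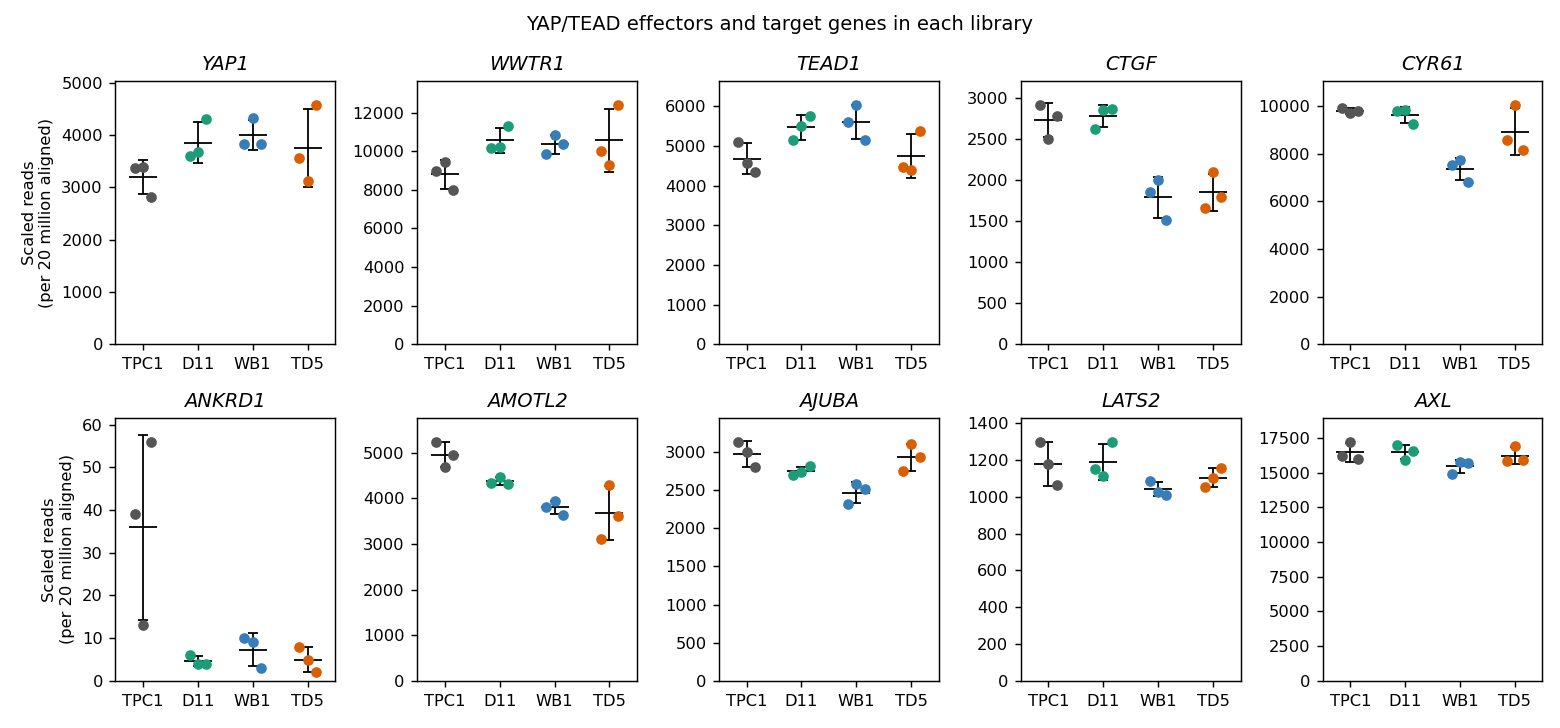
Scaled reads (per 20000000 aligned reads, linear axes starting at 0) of the 3 effectors and 7 target genes in each of the 12 libraries. Points are libraries, horizontal marks are means and bars are SD (n = 3). CTGF is low in all 3 WB1 and all 3 TD5 libraries but not in D11, and ANKRD1 lies at 2 to 10 in the 9 clone libraries.

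The question for each member was whether its mRNA level differed between a Dicer1 (+/-) clone and TPC1. CTGF, a secreted matricellular protein, was the one tested member that was called. CTGF (ENSG00000118523, chromosome 6, 131948176 to 131951372 of GRCh38, minus strand) had 2914, 2505 and 2777 scaled reads in TPC1. The D11 libraries had 2626, 2848 and 2864, the WB1 libraries 1857, 1997 and 1512, and the TD5 libraries 1659, 2093 and 1793. All WB1 and TD5 libraries lay below all TPC1 and D11 libraries, and D11 overlapped with TPC1.

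The mean of CTGF was 2732 ± 208 (SD, n = 3) in TPC1, 2779 ± 133 in D11, 1789 ± 250 in WB1 and 1848 ± 222 in TD5. WB1 was thus at 65.5% and TD5 at 67.7% of TPC1. In WB1 CTGF fell by 0.61 on the log2 scale (SE 0.10, limma adjusted p = 0.000281) and was called. In TD5 it fell by 0.56 (SE 0.10, adjusted p = 0.00115), just under the 1.5-fold minimum. In D11 the log2 fold change was 0.03 (95% interval -0.18 to 0.23, adjusted p = 0.857). The WB1 call did not hold with TPC1 replicate 1 (-0.56) or WB1 replicate 3 (-0.50) left out, and TD5 was called without TPC1 replicate 2 (-0.62) or TD5 replicate 2 (-0.65).

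Counted over the 9 tested members, 0 were called higher and 0 lower in D11, 0 higher and 1 lower in WB1, and 0 higher and 0 lower in TD5. Of all tested genes, 2.89% were higher and 1.95% lower in D11 by the same rule, 3.39% higher and 1.59% lower in WB1, and 1.12% higher and 1.48% lower in TD5. At an unadjusted p under 0.05 limma had 3 members higher and 0 lower in D11, 3 higher and 5 lower in WB1, and 1 higher and 2 lower in TD5. Of all tested genes, 26.9% were higher and 17.8% lower at this threshold for D11, then 26.1% and 16.6% for WB1, and 12.8% and 14.3% for TD5. By the rule for calls, voom on the estimated reads called 0 members in D11, 1 in WB1 and 0 in TD5. With the adjusted p alone, 2 members were higher and 0 lower in D11, 2 higher and 4 lower in WB1, and 0 higher and 2 lower in TD5. The shares of all tested genes with the adjusted p alone were 19.9% higher and 13.4% lower for D11, then 18.6% and 12.3% for WB1, and 5.32% and 6.57% for TD5. The members past the p threshold in WB1 were YAP1 and TEAD1 on the higher side and CTGF, CYR61, AMOTL2 and AJUBA on the lower. The median log2 fold change of the 6 tested target genes was -0.01 for D11, -0.32 for WB1 and -0.12 for TD5, beside 0.05, 0.06 and 0.00 over all tested genes.

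**Figure D2:**
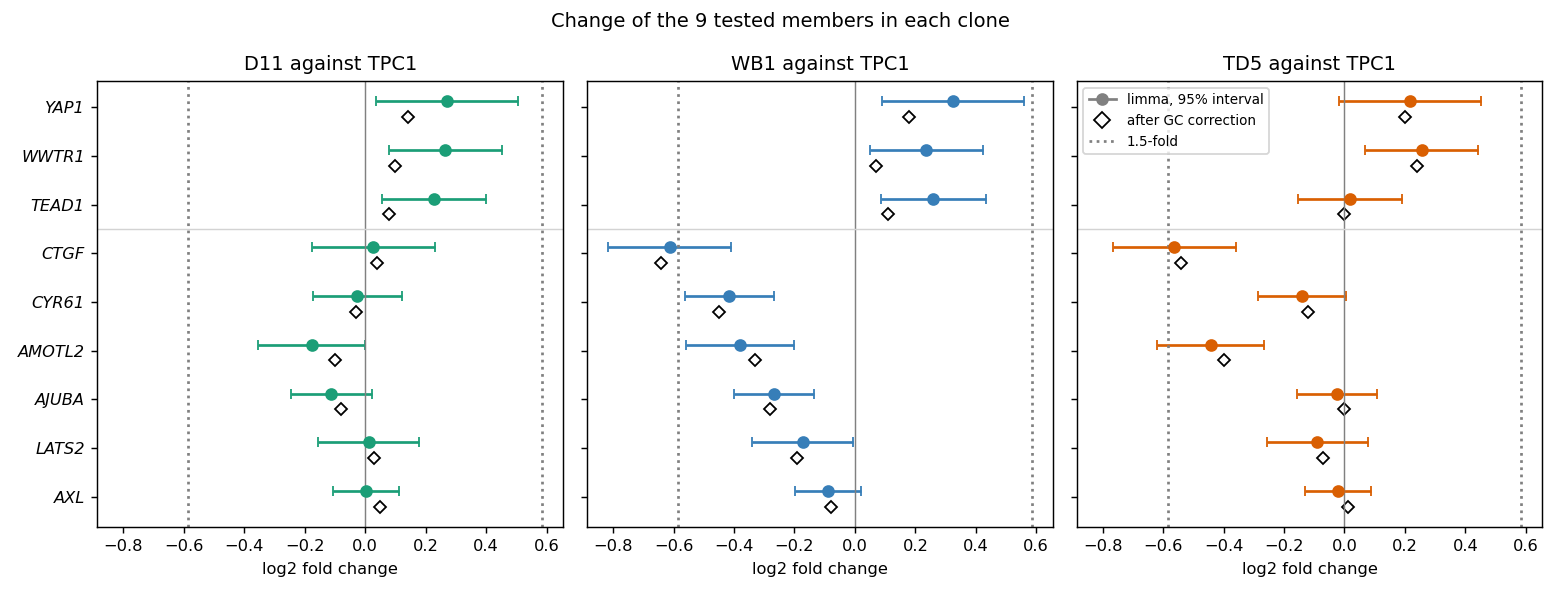
Log2 fold change of the 9 tested members in D11, WB1 and TD5 against TPC1. Filled points are the limma estimates with 95% intervals, open diamonds the estimates after correction for GC content, and dotted lines mark 1.5-fold. CTGF in WB1 (-0.61) is the only filled point beyond a dotted line, and the effectors move towards 0 after the correction in D11 and WB1.

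CYR61 encodes another secreted matricellular protein, from the same family as CTGF. CYR61 (ENSG00000142871, chromosome 1, 85580761 to 85584589, plus strand) had 9929, 9681 and 9768 scaled reads in TPC1 and 9772, 9844 and 9249 in D11. The WB1 libraries had 7500, 7739 and 6817 and the TD5 libraries 8581, 10038 and 8128. The 3 WB1 libraries were lower than every other library, and TD5 overlapped with TPC1. The change of CYR61 in WB1 was -0.41 (SE 0.07, limma adjusted p = 0.000443), a level of 75.1% of TPC1, so that it passed the p threshold but not the 1.5-fold minimum. In D11 it was -0.03 (adjusted p = 0.796) and in TD5 -0.14 (adjusted p = 0.201).

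ANKRD1 encodes a nuclear ankyrin-repeat protein of muscle that is also a strong YAP target in other cells. ANKRD1 (ENSG00000148677, chromosome 10, 90912096 to 90921087, minus strand) had 39, 13 and 56 scaled reads in TPC1. The D11 libraries had 6, 4 and 4, those of WB1 10, 9 and 3, and those of TD5 8, 5 and 2. Every clone library lay below the lowest TPC1 library, which was replicate 2. The estimated reads behind these values were 89 in the 3 TPC1 libraries together, against 10 in D11, 17 in WB1 and 9 in TD5. Relative to depth, D11 had 12.2% of the TPC1 level (exact 95% interval 5.7% to 23.5%), WB1 had 19.5% (10.9% to 33.1%) and TD5 had 12.3% (5.4% to 24.3%). These intervals cover counting error only, while the TPC1 libraries themselves ranged from 11 to 40 estimated reads. ANKRD1 did not reach 1 per 1000000 in 3 libraries and so has no adjusted p in the reported fit. Without the filter on low values the log2 fold changes of ANKRD1 were -1.10 in D11, -0.96 in WB1 and -1.09 in TD5, with limma adjusted p = 0.00472, 0.0103 and 0.00979. On this scale the added pseudocount makes the change of so low a gene look smaller than its ratio of reads.

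AMOTL2 encodes an angiomotin-like scaffold that binds YAP1 and holds it at cell junctions, as part of a negative feedback. AMOTL2 (ENSG00000114019, chromosome 3, 134355347 to 134375479, minus strand) had 5239, 4691 and 4937 scaled reads in TPC1. D11 had 4338, 4475 and 4316, WB1 had 3819, 3940 and 3643, and TD5 had 3105, 4287 and 3615. All 9 clone libraries were below all TPC1 libraries, which held for 1 of the 9 tested members and for 6.51% of all tested genes; the opposite order held for 0 members and 5.17% of genes. The change of AMOTL2 was -0.18 in D11, -0.38 in WB1 and -0.44 in TD5 (SE 0.08 each), with limma adjusted p = 0.113, 0.00342 and 0.00244. WB1 and TD5 passed the p threshold under the 1.5-fold minimum, at 76.7% and 74.0% of TPC1. With median-of-ratios scaling D11 also passed it (-0.24, adjusted p = 0.0386). Exons of AMOTL2 share 187 bases with a pseudogene on the same strand, RPL39P5, which had 432 to 665 scaled reads.

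AJUBA encodes a LIM-domain protein that restrains LATS kinases at junctions under tension. AJUBA (ENSG00000129474, chromosome 14, 22971177 to 22982551, minus strand) had 3136, 2998 and 2799 scaled reads in TPC1 and 2703, 2736 and 2815 in D11. The WB1 libraries had 2318, 2578 and 2511 and the TD5 libraries 2755, 3102 and 2930. The WB1 libraries lay below all others and the remaining lines overlapped. The change of AJUBA in WB1 was -0.27 (SE 0.06, limma adjusted p = 0.00486), past the p threshold but smaller than 1.5-fold. It was -0.11 in D11 (adjusted p = 0.177) and -0.02 in TD5 (adjusted p = 0.856), which GC correction moved to 0.00. With median-of-ratios scaling AJUBA in D11 passed the p threshold (-0.17, adjusted p = 0.0434). A protein-coding gene on the same strand shares 50 exon bases with AJUBA and had 391 to 506 scaled reads.

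LATS2, the kinase that phosphorylates YAP1 and WWTR1 and is itself induced by them, and AXL, a receptor tyrosine kinase, did not pass the p threshold in any clone in the reported fit. LATS2 (ENSG00000150457, chromosome 13, 20973036 to 21061586, minus strand) had 1300, 1177 and 1063 scaled reads in TPC1 and 1149, 1115 and 1300 in D11. WB1 had 1088, 1027 and 1012 and the TD5 libraries 1054, 1100 and 1158. All 3 clones overlapped with TPC1. The 95% interval of the log2 fold change of LATS2 was -0.16 to 0.18 in D11, -0.34 to -0.01 in WB1 and -0.26 to 0.08 in TD5, with limma adjusted p = 0.929, 0.108 and 0.507. In WB1, LATS2 passed the p threshold in 2 of 22 alternatives, among them median-of-ratios scaling (-0.23, adjusted p = 0.0256).

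AXL (ENSG00000167601, chromosome 19, 41219223 to 41261766, plus strand) had 16186, 17220 and 15954 scaled reads in TPC1 and 16988, 15927 and 16524 in D11. The WB1 libraries had 14909, 15788 and 15669 and the TD5 libraries 15796, 16888 and 15924. The WB1 libraries lay just below the TPC1 libraries, and D11 and TD5 overlapped with them. The 95% interval of AXL was -0.11 to 0.11 in D11, -0.20 to 0.02 in WB1 and -0.13 to 0.09 in TD5, and the limma adjusted p was at least 0.191 in all 3.

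The estimates of the 3 effectors were above 0 in every clone. YAP1 (ENSG00000137693, chromosome 11, 102110447 to 102233424, plus strand) had 3359, 3393 and 2816 scaled reads in TPC1 and 3597, 3665 and 4298 in D11. WB1 had 3819, 4320 and 3830 and the TD5 libraries 3552, 3117 and 4571. The D11 and WB1 libraries lay above all TPC1 libraries, whereas TD5 overlapped with them. The share of all tested genes with such an order in a single clone was not counted, for this or any other member. The change of YAP1 was 0.27 in D11, 0.32 in WB1 and 0.22 in TD5 (SE 0.11 each), with limma adjusted p = 0.0685, 0.0361 and 0.221.

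WWTR1 (ENSG00000018408, chromosome 3, 149517235 to 149736714, minus strand) had 8977, 9443 and 7965 scaled reads in TPC1 and 10139, 10222 and 11323 in D11. In WB1 it had 9846, 10842 and 10368 and in TD5 10010, 9264 and 12391. As for YAP1, D11 and WB1 did not overlap with TPC1 and TD5 did. The change of WWTR1 was 0.27 in D11, 0.24 in WB1 and 0.26 in TD5 (SE 0.09 each), with limma adjusted p = 0.0297, 0.0504 and 0.0697. TD5 replicate 3 held the highest value of the 12 libraries for both co-activators, and without it TD5 was at 0.07 for YAP1 and 0.13 for WWTR1.

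TEAD1 (ENSG00000187079, chromosome 11, 12674421 to 12944737, plus strand) had 5103, 4567 and 4344 scaled reads in TPC1 and 5143, 5495 and 5750 in D11. The WB1 libraries had 5608, 6030 and 5158 and the TD5 libraries 4464, 4379 and 5381. D11 and WB1 again lay above TPC1. The change of TEAD1 was 0.23 in D11, 0.26 in WB1 and 0.02 in TD5 (SE 0.08 each), with limma adjusted p = 0.0428, 0.024 and 0.918. TEAD1 expression in TD5 was thus not distinguishable from TPC1, with a 95% interval of -0.16 to 0.19.

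The difference of the effectors in D11 and WB1 moved by more than 1.5 times with a correction for GC content. The GC content of the transcripts was 43.5% for YAP1, 42.2% for WWTR1 and 43.0% for TEAD1, against 50.5% to 56.3% for the 6 tested targets. After each library was corrected for the trend of its values with GC content, YAP1 was 0.14 in D11 and 0.18 in WB1 (limma adjusted p = 0.284 and 0.152). WWTR1 was then 0.10 and 0.07 (adjusted p = 0.312 and 0.489), and TEAD1 0.08 and 0.11 (adjusted p = 0.348 and 0.205). In TD5, WWTR1 kept a change of 0.24 and now passed the p threshold (adjusted p = 0.0291). Among the targets, CTGF was at -0.64 in WB1 and -0.54 in TD5 and CYR61 at -0.45 in WB1, close to the values without the correction, whereas AMOTL2 in D11 went from -0.18 to -0.10. With median-of-ratios scaling in place of the GC correction, no effector passed the p threshold in any clone. YAP1 was then 0.26 in WB1 and WWTR1 0.21 in D11 (limma adjusted p = 0.0751 and 0.0769). TEAD1 was 0.17 in D11 and 0.20 in WB1 (adjusted p = 0.106 and 0.0642). YAP1 exons share 628 bases, and WWTR1 exons 756 bases, with a lncRNA on the opposite strand, at 571 to 1009 and 162 to 298 scaled reads, and the strand setting of the counting is not given in the sources used here.

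The clones were also compared with each other. CTGF was lower in WB1 than in D11 by a log2 fold change of -0.64 (SE 0.10, limma adjusted p = 0.000302) and lower in TD5 than in D11 by -0.59 (adjusted p = 0.000487), and both were called. WB1 and TD5 did not differ in CTGF beyond their spread (0.05, 95% interval -0.15 to 0.25). The call between TD5 and D11 lies next to the 1.5-fold minimum and was lost, still with an adjusted p of at most 0.00417, under median-of-ratios scaling (-0.54), a pseudocount of 4 (-0.57) and the GC correction (-0.58). It was also lost without D11 replicate 2 or D11 replicate 3 (-0.57 each), TD5 replicate 1 (-0.52) or TD5 replicate 3 (-0.57), and that between WB1 and D11 without WB1 replicate 3 (-0.52).

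Among the 9 members, 1 was called lower and 0 higher in WB1 against D11, where 0.88% of all tested genes were called lower and 1.97% higher. In TD5 against D11, 1 was called lower and 0 higher, beside 2.32% and 1.67% of all tested genes. In TD5 against WB1, limma and voom called 0 in either direction, beside 1.72% lower and 0.611% higher by limma, and 2 were higher and 1 lower at an unadjusted p under 0.05, beside 10.2% and 20.2% of all tested genes. Past the p threshold but under 1.5-fold were CYR61 in WB1 against D11 (-0.39, adjusted p = 0.00133) and in TD5 against WB1 (0.27, adjusted p = 0.0158). The same held for AMOTL2 in TD5 against D11 (-0.27, adjusted p = 0.0311) and AJUBA in TD5 against WB1 (0.24, adjusted p = 0.0176). Over the alternatives the limma adjusted p of AMOTL2 reached 0.165, without TD5 replicate 1, that of AJUBA 0.0878, without WB1 replicate 1, and that of CYR61 in TD5 against WB1 0.0803, without TD5 replicate 2. It was also 0.05 or more for AMOTL2 without any one D11 library, for AJUBA without TD5 replicate 2 and for CYR61 without WB1 replicate 3. With the adjusted p alone 2 members were thus lower and 0 higher in WB1 against D11, beside 3.42% and 4.65% of all tested genes. In TD5 against D11 they numbered 2 lower and 0 higher, beside 14.8% and 8.43%, and in TD5 against WB1 0 lower and 2 higher, beside 9.12% and 4.52%. The other 21 of the 27 differences between clones ranged from -0.24 to 0.09. In the order of the 4 lines from high to low, CTGF ran D11, TPC1, TD5 and WB1, and only the step from TPC1 to TD5 passed the p threshold. Of the steps between neighbouring lines in the order of each of the other 8 members, that of CYR61 from TD5 to WB1 passed it, and the remaining ones had an adjusted p of at least 0.0504.

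**Figure D3:**
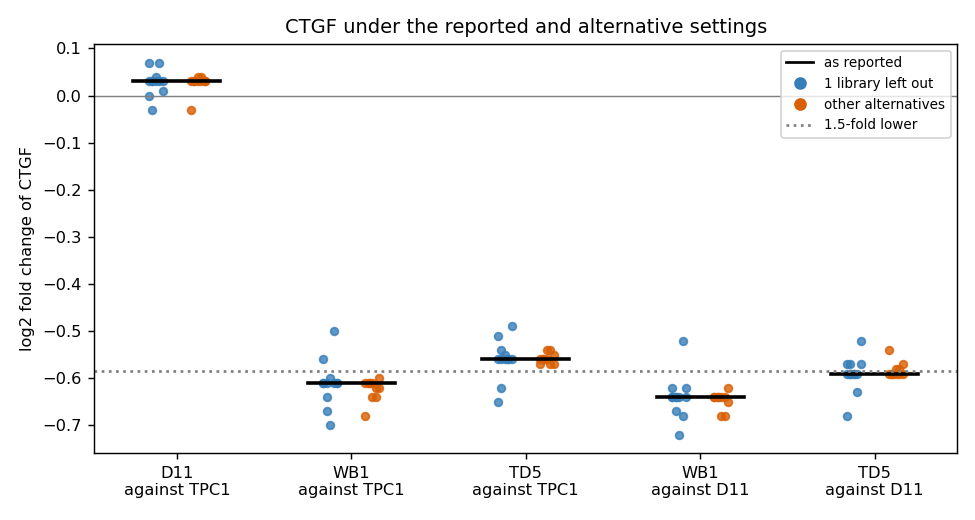
Log2 fold change of CTGF in 5 comparisons, as reported (black bars), with 1 library left out (blue points) and under the other alternatives (orange points). The dotted line marks 1.5-fold lower. In the 4 comparisons of WB1 or TD5 with TPC1 or D11 all points lie between -0.72 and -0.49, on both sides of the dotted line, and in D11 against TPC1 they lie near 0.

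The other genes of the pathway were taken from lists of Hippo components. Of 10 core kinases and adaptors, limma called 0 in any clone, and with the adjusted p alone 6 were higher and 0 lower in D11, 3 higher and 1 lower in WB1, and 0 higher and 2 lower in TD5, at the shares of all tested genes given above for that threshold. Their median log2 fold change was 0.23 in D11, 0.20 in WB1 and 0.09 in TD5. The GC content of their transcripts ran from 34.1% for MOB1B to 61.9% for TAOK2, and after the GC correction 2 were higher and 0 lower in D11 and 1 higher and 1 lower in WB1, with medians of 0.10 and -0.01. Of 12 upstream regulators, 1 was called, NF2 in WB1, where 1.59% of all tested genes were called lower. NF2 encodes merlin, the scaffold that brings LATS kinases to the membrane. NF2 had 3867, 3715 and 3557 scaled reads in TPC1 and 3050, 3316 and 3143 in D11, whereas WB1 had 2340, 2451 and 2570 and TD5 had 2810, 3138 and 2675. All clone libraries lay below TPC1, and NF2 fell by 0.59 in WB1 (SE 0.07, limma adjusted p = 1.08e-05). NF2 was at -0.23 in D11 (adjusted p = 0.0146) and -0.37 in TD5 (adjusted p = 0.00141), both under 1.5-fold. The WB1 call of NF2 was lost with the GC correction (-0.56), a pseudocount of 4 (-0.58) and with TPC1 replicate 1 or WB1 replicate 1 left out (-0.56 each).

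Among the 7 TEAD partners, VGLL1, VGLL2 and VGLL3 were not tested, and limma called 0 of the other 4, with 0 higher and 1 lower in D11, 1 higher and 3 lower in WB1, and 1 higher and 0 lower in TD5 at an unadjusted p under 0.05, a threshold whose shares over all tested genes stand above. WB1 had a median of -0.18 for these 4 genes, against -0.03 for D11 and 0.09 for TD5. With the adjusted p alone, 1 was higher and 1 lower for WB1, while the counts of the other clones did not change. The transcripts of TEAD2, TEAD3 and TEAD4 had a GC content of 58.1% to 60.4%. After the GC correction, 0 of the 4 were lower by the adjusted p for any clone. By the same measure 1 stayed higher for WB1 and 1 for TD5. The medians were then -0.10 for WB1, 0.02 for D11 and 0.12 for TD5. VGLL4, which competes with YAP1 for TEAD and is named here after its values were seen, had 656, 642 and 572 scaled reads in TPC1 and 841, 832 and 911 in WB1. VGLL4 was at 0.46 in WB1, 0.30 in TD5 and 0.00 in D11, in each case under 1.5-fold (limma adjusted p = 0.00187, 0.0449 and 0.993).

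Of 16 other YAP/TAZ targets, 1 was called higher and 2 lower in D11, 1 higher and 1 lower in WB1, and 1 higher and 1 lower in TD5, and the medians were 0.03, -0.05 and -0.07. The gene called higher in each clone was NT5E, the ectoenzyme CD73 that makes adenosine. NT5E had 2318, 2672 and 1987 scaled reads in TPC1. D11 had 4238, 3866 and 4075, WB1 had 4079, 3740 and 4419, and TD5 had 3929, 2954 and 3760. All clone libraries were above TPC1, and NT5E rose by 0.81 in D11 and WB1 and by 0.60 in TD5 (limma adjusted p = 5.09e-05, 4.79e-05 and 0.00121). The TD5 call of NT5E was lost without TPC1 replicate 3 (0.50), TD5 replicate 1 (0.53) or TD5 replicate 3 (0.56).

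NUAK2, a kinase of the AMPK family that promotes actomyosin tension, was called lower in D11 and WB1. NUAK2 had 1114, 976 and 1140 scaled reads in TPC1. D11 had 670, 714 and 614, WB1 had 608, 646 and 522, and TD5 had 722, 869 and 648. No clone library reached the TPC1 range. NUAK2 fell by 0.68 in D11 and by 0.84 in WB1 (limma adjusted p = 0.000256 and 3.44e-05), and was at -0.52 in TD5, where it was called without TPC1 replicate 2 (-0.59) or TD5 replicate 2 (-0.64). TGFB2, a TGF-beta ligand, was called lower in D11 (-0.68, adjusted p = 0.00158) and TD5 (-0.69, adjusted p = 0.00247). TGFB2 had 875, 593 and 674 scaled reads in TPC1. D11 had 400, 430 and 474, WB1 had 484, 643 and 449, and TD5 had 397, 446 and 442. The D11 and TD5 libraries lay below TPC1 and WB1 overlapped with it, and both calls were lost without TPC1 replicate 1, which held the highest value (-0.52 in D11 and -0.54 in TD5). With the GC correction TGFB2 was also called in WB1 (-0.59).

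Genes of the actin cytoskeleton and of its transcription factor SRF are read beside the YAP targets because the same tension of the cytoskeleton acts on both. Of 13 tested, 0 were called higher, and the genes called lower numbered 1 for D11, 4 for WB1 and 2 for TD5. Of all tested genes, 1.95%, 1.59% and 1.48% were called lower in these clones, and 2.89%, 3.39% and 1.12% higher. The medians of the 13 were -0.16, -0.25 and -0.11, beside 0.05, 0.06 and 0.00 over all tested genes. MYL9, the regulatory light chain of non-muscle and smooth muscle myosin, had 2781, 2345 and 3008 scaled reads in TPC1 and 2123, 2060 and 1941 in D11. In WB1 it had 755, 920 and 938 and in TD5 1237, 1524 and 1188. The lines did not overlap, and MYL9 fell by 1.62 in WB1 and by 1.03 in TD5 (limma adjusted p = 3.01e-08 and 5.65e-06), against -0.40 in D11. WB1 was also called lower than D11 in MYL9 (-1.22), as was TD5 (-0.63), and both comparisons share the D11 libraries.

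TAGLN, the actin-binding protein transgelin, had 151, 138 and 174 scaled reads in TPC1. D11 had 90, 86 and 77, WB1 had 91, 48 and 57, and TD5 had 32, 51 and 33. It was called lower in each clone, by -0.74, -1.06 and -1.58 (limma adjusted p = 0.00378, 0.000274 and 1.05e-05), and with a pseudocount of 4 these values were -0.51, -0.70 and -0.98, so that the D11 call was lost. TAGLN was also called lower in TD5 than in D11 (-0.84). CNN2 (calponin 2) and TPM2 (beta-tropomyosin) were called lower in WB1, at -0.61 and -0.62, and both calls were lost with the GC correction (-0.53 and -0.55) and without TPC1 replicate 3 (-0.56 and -0.55). The call of CNN2 was further lost without WB1 replicate 3 (-0.58), and CNN2 was called in D11 with median-of-ratios scaling or without TPC1 replicate 2 (-0.63 each).

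**Figure D4:**
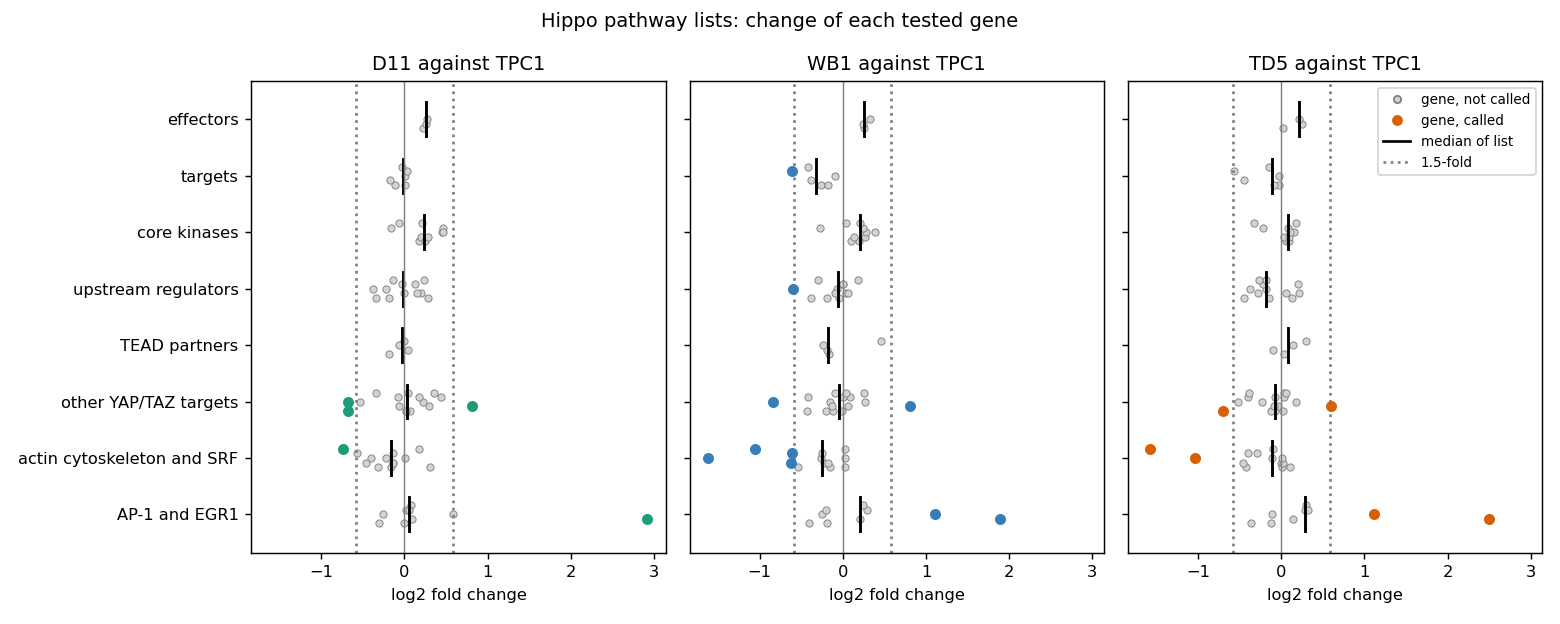
Log2 fold change of each tested gene of the effectors, the targets and 6 further lists in D11, WB1 and TD5 against TPC1. Grey points were not called, coloured points were called, black bars are list medians and dotted lines mark 1.5-fold. MYL9 and TAGLN are the lowest points of the actin list in WB1 and TD5, and EGR1 is the highest point in every panel.

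AP-1 factors bind beside TEAD at many enhancers, and EGR1 and FOS are immediate early genes that serum or growth factors induce. Of 9 such genes, 0 were called lower, while D11 had 1 called higher and WB1 and TD5 had 2 each. Over all tested genes, 2.89%, 3.39% and 1.12% were called higher in D11, WB1 and TD5, and 1.95%, 1.59% and 1.48% lower. EGR1 had 23, 35 and 25 scaled reads in TPC1. D11 had 337, 265 and 427, WB1 had 140, 189 and 143, and TD5 had 349, 165 and 261. All clone libraries lay far above TPC1, and EGR1 rose 7.53-fold in D11, 3.71-fold in WB1 and 5.65-fold in TD5 on the fitted scale (limma adjusted p = 3.41e-08, 9.96e-06 and 4.88e-07). With a pseudocount of 4 the log2 fold changes of EGR1 were 1.96, 1.14 and 1.62, and it was called in all 3 clones under each of the 22 alternatives. EGR1 was also lower in WB1 than in D11 (-1.02, adjusted p = 0.00379). FOS had 16, 10 and 8 scaled reads in TPC1. D11 had 22, 28 and 30, WB1 had 52, 47 and 43, and TD5 had 45, 38 and 62. FOS was called higher in WB1 (1.11) and TD5 (1.12) but not in D11 (0.58). At these low values the estimate turns on the pseudocount, and with 4 it was 0.48 in WB1 and 0.49 in TD5, below 1.5-fold, while with 0.1 D11 was called (1.14). FOS was called in D11 under 6 of 21 alternatives, among them the GC correction (0.61) and the fits without TPC1 replicate 1 (0.68) or D11 replicate 1 (0.65). The part of serum or handling at harvest in these values was not tested.

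Across the 12 libraries, likeness between genes was measured by Pearson's r of the log2 values over the 12242 tested genes that averaged 5 per 1000000 or more, as a description that carries no p. The values share the 4 lines and the libraries' depth and GC trend. YAP1 and WWTR1 followed each other closely (r = 0.954, WWTR1 ranking at place 7 for YAP1), and within lines, after each line's mean was removed, their r was 0.978. After the GC correction it was 0.925. Within lines, CTGF correlated with AMOTL2 at 0.791 and with CYR61 at 0.742, and CYR61 with AMOTL2 at 0.716. These values lean on few libraries. AMOTL2 deviated from its line mean by -0.227 and 0.236 in TD5 replicates 1 and 2, and elsewhere by no more than 0.081 either way. In the same 2 libraries CTGF deviated by -0.147 and 0.184 and CYR61 by -0.049 and 0.177. In WB1 replicate 3 CTGF was at -0.23 and CYR61 at -0.107. Within lines, the r of YAP1 was 0.859 with TEAD1, 0.609 with LATS2, 0.255 with AJUBA, -0.038 with AXL, -0.072 with CTGF, -0.234 with AMOTL2 and -0.571 with CYR61.

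The genes most like CTGF in their pattern over all 12 libraries were NCEH1 (r = 0.968), DKK1 (0.95) and CASC19 (0.94). For CYR61 they were PLK2 (0.97), CLCN2 (0.966) and MIR3918 (0.952), and for AMOTL2 KLC3 (0.96), CD3EAP (0.947) and USP36 (0.943). AJUBA was most like TGFBRAP1 (0.939), THRB (0.928) and HAVCR1 (0.921). The likeness was weaker for LATS2, led by PRTG (0.883), STAM (0.876) and JPH1 (0.854), and for AXL, led by CACNG8 (0.87), AC069234.3 (0.864) and CYTH3 (0.841). YAP1 was most like PERP (0.984), AP000942.2 (0.968) and GNAQ (0.966), WWTR1 like QKI (0.97), ACTR3 (0.965) and PERP (0.961), and TEAD1 like MBOAT2 (0.981), SOS1 (0.976) and TRIM23 (0.97). Among the members, AMOTL2 ranked at place 46 for CTGF (r = 0.872) and CYR61 at place 105 (r = 0.82).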

How the data were processed

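Poly(A) RNA was prepared into 12 libraries with a stranded mRNA kit and sequenced as paired-end reads. Per the labels and the study's methods, the authors mapped reads to GRCh38 with STAR 2.5.3a and counted them on Ensembl genes with HTSeq 0.9.1. The deposited table holds whole numbers, treated here as a score: reads per gene that the authors scaled to 20000000 aligned reads and rounded up. Because these are not counts, the edgeR test of the authors was not applied.

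Values per 1000000 of the library sum were tested as log2(value + 1) by limma 3.58.1 (R 4.3.3) with a variance trend, on all 12 libraries, for the 16027 genes that reached 1 per 1000000 in 3 or more libraries. Called genes had an adjusted p (Benjamini-Hochberg over all tested genes) under 0.05 and a 1.5-fold change. Reads per library were estimated from gaps between the whole numbers in 11 libraries and, in TPC1 replicate 1, which had no gaps, by likelihood from how often each whole number occurred. GC content, known for 99.1% of tested genes, was corrected per library with a spline with 5 degrees of freedom. Alternatives were median-of-ratios scaling, other filters and pseudocounts, fits of only the 2 lines, a replicate block, GC correction, voom on the estimated reads, no minimum fold, leaving out each library, and, added after seeing the data, the block with GC correction. Scripts were tested on simulated data. Tables were made in Python 3.11.15 (pandas 2.3.3, scipy 1.17.1) and figures with matplotlib 3.10.9.

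Libraries were grouped by title. D11 and TD5 libraries of the same number had a positive r of their deviations in all 3 pairs (r = 0.107, 0.172 and 0.348). D11 replicate 1 with TD5 replicate 2 reached 0.203 as well, so a pairing by number was not settled. The reported fit has no block, and the fit with the replicate number as a block across all lines was an alternative. No source used here describes such a pairing. No other pair of lines had a positive r in all 3 pairs of the same number.

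The members and lists were chosen with earlier results of these data known. Named genes are all members, DICER1, each gene of the lists called in any comparison (at most the 4 with the largest change per list and comparison) and, per tested member, the 3 genes of closest pattern. VGLL4 and the marker genes printed with their values were named outside this rule, after their values were seen.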

Additional observations from a re-analysis of the deposited data

Results flagged for a closer look

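The members below differed between 2 clones in limma, each by a test of the difference itself, at an adjusted p under 0.05. CTGF was lower in WB1 than in D11 (-0.64, adjusted p = 0.000302) and lower in TD5 than in D11 (-0.59, adjusted p = 0.000487), so that its changes against TPC1 in WB1 and TD5 differed from that in D11. CYR61 was lower in WB1 than in D11 (-0.39, adjusted p = 0.00133) and higher in TD5 than in WB1 (0.27, adjusted p = 0.0158). AMOTL2 was lower in TD5 than in D11 (-0.27, adjusted p = 0.0311), and AJUBA higher in TD5 than in WB1 (0.24, adjusted p = 0.0176). The adjusted p of AMOTL2 was not under 0.05 in 7 of 22 alternatives, among them median-of-ratios scaling (0.0742) and the fit without TD5 replicate 1 (-0.15, adjusted p = 0.165). That of CYR61 in TD5 against WB1 and that of AJUBA were not under 0.05 in 3 of 22 alternatives each, with highest values of 0.0803 and 0.0878. In each of these comparisons 3 libraries stood on each side, and the origin of the clones as single cells cannot be told apart from the Dicer1 alleles they carry.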

How the results depend on the processing

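Followed here were the fold changes of members against TPC1 and the 6 differences between clones past the p threshold. The other 21 differences between clones were left out. Under the alternatives these gave 726 fold changes, of which 694 kept their direction and their state as called or not. A call was lost by 11 and gained by 2, and 19 changed sign. Moves across the p threshold alone were not counted here. Against TPC1, the limma adjusted p of YAP1 in WB1 was not under 0.05 in 8 of 22 alternatives, and that of TEAD1 in D11 in 10. Of the 19, 0 had an adjusted p under 0.05 in either fit. Without a minimum fold, the members called numbered 2 in D11, 6 in WB1 and 2 in TD5 against TPC1, and 2 in each of WB1 against D11, TD5 against D11 and TD5 against WB1. Calls of the other Hippo genes (42 tested) were summed over the 3 clones, and a gene can count in each of them. They numbered 8 as reported and 46 without the minimum fold. The shares of all tested genes at both thresholds are given above. Without the filter on low values, ANKRD1 was also tested and D11 had 1 member called, WB1 had 2 and TD5 had 1. In TD5 against D11, 0 members were called under median-of-ratios scaling, a pseudocount of 4, the GC correction, and the replicate block with GC correction. The replicate block alone changed no call of a member, and CTGF in TD5 against D11 was -0.59 with it (adjusted p = 0.0013).

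Signs changed for CTGF, LATS2 and AXL in D11 under median-of-ratios scaling (-0.03, -0.05 and -0.06), and for AJUBA and AXL in TD5 under GC correction with or without the block (0.00 and 0.01). DICER1 in WB1 was called under GC correction with or without the block (-0.63). The cause was not tested.

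Leaving out each library gave 0 to 1 members called in WB1 and in TD5 against TPC1, in WB1 against D11 and in TD5 against D11. The other Hippo genes called numbered 5 to 9, with 5 without TPC1 replicate 1. The log2 fold change ranged in D11 from -0.03 to 0.07 for CTGF, -0.04 to 0.00 for CYR61, -0.06 to 0.08 for LATS2 and -0.02 to 0.04 for AXL. In TD5 it ranged from -0.08 to 0.08 for TEAD1, -0.07 to 0.02 for AJUBA and -0.05 to 0.01 for AXL. The depth limits ANKRD1, which had 1 to 8 estimated reads in each clone library.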

Other observations

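The epithelial keratins KRT8 and KRT18, whose products form the intermediate filaments of simple epithelia, were the tested members of the epithelial marker list. Its other markers EPCAM, CDH1 and KRT19 had at most 5, 2 and 6 scaled reads in any library. The sum of the list is thus nearly that of KRT8 and KRT18. The sum of this list was 21033 to 24052 scaled reads in TPC1, 16948 to 18422 in D11, 17899 to 18328 in WB1 and 16609 to 19018 in TD5, so that no clone library reached the TPC1 range. FOXE1, a thyroid transcription factor, had 316, 286 and 280 scaled reads in TPC1 and 93 to 171 in the clones. FOXE1 was called lower in D11 (-0.95), WB1 (-1.06) and TD5 (-1.20) by limma, with adjusted p = 0.000138, 5.16e-05 and 2.79e-05.

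LUM, which encodes the proteoglycan lumican, was listed at 0 in the 3 D11 libraries and at 2, 0 and 0 in TD5, against 78, 73 and 63 scaled reads in TPC1 and 138, 212 and 148 in WB1. PDGFRB, a growth factor receptor, was called lower in WB1 than in TPC1 (-1.41, limma adjusted p = 2.21e-05).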
